A study of Homo sapiens with 6 samples.

Results

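miR-146a-5p, the mature microRNA cut from the 5' arm of the MIR146A hairpin, was followed in small RNA from vesicles shed by MHCC97H, an established human liver cancer line known to metastasise readily. It is 1 row, matched by its name hsa-miR-146a-5p, of the 1007 rows in the deposited count table. The rows of stem miR-146b (2 rows) and miR-155 (1 row) were set beside it. Of the 6 libraries, 3 represent xanthatin, a sesquiterpene lactone found in Xanthium plants, given to the cells at 4 µmol/L for 24 h, and 3 represent control cells. DMSO, the solvent of xanthatin, was kept at 0.5% throughout, per the labels' protocols, and the medium of all cells held 5% ordinary fetal bovine serum beside 5% serum freed of exosomes. Vesicles were pelleted from the medium at 120000xg and their RNA was cut from a gel at 18 to 30 nt, so the values describe the released pellet of 1 cell line and not RNA inside the cells. The labels do not say whether libraries of a group came from separate cultures, so p-values measure the spread between these libraries, which may be technical.

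miR-146a is known as a feedback regulator of innate immune signalling. Its transcription is induced by NF-kB, the transcription factor that Toll-like receptors and the interleukin-1 receptor switch on. The mature miRNA represses IRAK1 and TRAF6, signalling proteins of that same route. miR-146b is a second copy of the miRNA from another chromosome with the same seed, the stretch that pairs with target transcripts. miR-155 is induced by the same signals and in immune cells is best known for strengthening inflammatory responses.

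The sequences are shown because miR-146a-5p and miR-146b-5p can be told apart in sequencing reads only near their 3' ends, while miR-155-5p has a different seed. Sequences are those of RefSeq on GRCh38.p14, 5' to 3', with the seed (bases 2 to 8) in capitals.
miR-146a-5p: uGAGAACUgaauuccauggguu
miR-146b-5p: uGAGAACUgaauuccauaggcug
miR-155-5p: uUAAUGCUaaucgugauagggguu
Counted from 1 at the 5' end, the first 17 bases of miR-146a-5p (22 nt) and miR-146b-5p (23 nt) are identical. The differences from miR-146a-5p to miR-146b-5p are G18A and U21C, and miR-146b-5p has 1 more base. How the deposited counts assigned reads that end before these positions is not given in the sources used here. Another human miRNA of the RefSeq table, miR-7153-5p, has the same seed and has no row among the deposited counts.

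The MIR146A hairpin lies at chr5:160485352-160485450 on the plus strand of GRCh38. In the GENCODE release 29 annotation it sits in exon 2 of both transcripts of the noncoding host gene MIR3142HG. In the hairpin below, the counted 5' arm is in capitals.
MIR146A hairpin: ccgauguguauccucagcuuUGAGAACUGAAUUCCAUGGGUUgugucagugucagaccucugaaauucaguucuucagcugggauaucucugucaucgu
The table had 0 rows for the 3' arm, miR-146a-3p, and 0 rows for miR-3142, the other miRNA of this host. The MIR146B hairpin lies at chr10:102436512-102436584 outside other annotated genes. MIR155 lies at chr21:25573980-25574044 in exon 4 of its noncoding host MIR155HG.

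The promoter of the host gene is shown because induction of miR-146a by NF-kB is known to act there. The window of 250 bases before and 50 after the RefSeq start of MIR3142HG, chr5:160468001-160468300 on the plus strand, was searched for the letters GGACTTTCC, a form of the NF-kB binding site, on both strands. They occurred 1 time, beginning 119 bases before the start, and are in capitals here.
MIR3142HG promoter: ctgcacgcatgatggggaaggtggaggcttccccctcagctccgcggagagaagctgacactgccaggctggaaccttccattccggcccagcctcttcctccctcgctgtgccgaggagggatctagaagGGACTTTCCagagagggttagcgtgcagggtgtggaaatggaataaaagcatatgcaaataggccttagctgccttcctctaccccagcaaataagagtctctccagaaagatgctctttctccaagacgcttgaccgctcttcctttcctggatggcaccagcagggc
Of 35116 RefSeq promoter windows of this length, 130 (0.37%) held those letters on either strand, and the MIR155HG window held 0 matches. The match describes letters only, and binding was not measured in these libraries.

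The xanthatin libraries held 204520 to 267956 miRNA counts and the control libraries 63965 to 80088, so 1 count weighed 4.16 to 5.55 CPM (the count scaled to library size by the TMM method of edgeR) in xanthatin libraries and 11.6 to 13.3 CPM in control libraries. After the default count filter of edgeR, 254 rows were tested, 178 of them known miRNAs. At an adjusted p under 0.05 in edgeR's quasi-likelihood test, 34 rows were higher and 43 lower in xanthatin libraries, and with library totals alone as scaling 22 were higher and 60 lower.

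miR-146a-5p was higher in xanthatin libraries than in control libraries. It had 560, 583 and 542 counts in xanthatin libraries 1, 2 and 3, against 108, 99 and 62 counts in control libraries 1, 2 and 3. Scaled for depth, these were 2651, 2424 and 3010 CPM in the xanthatin libraries and 1250, 1251 and 825 CPM in the control libraries. The groups did not overlap: the lowest xanthatin library lay well above the highest control library, and control library 3 was the lowest of all. The means were 2695 ± 296 CPM in xanthatin libraries and 1109 ± 246 CPM in control libraries (SD, n = 3 each).

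**Figure D1:**
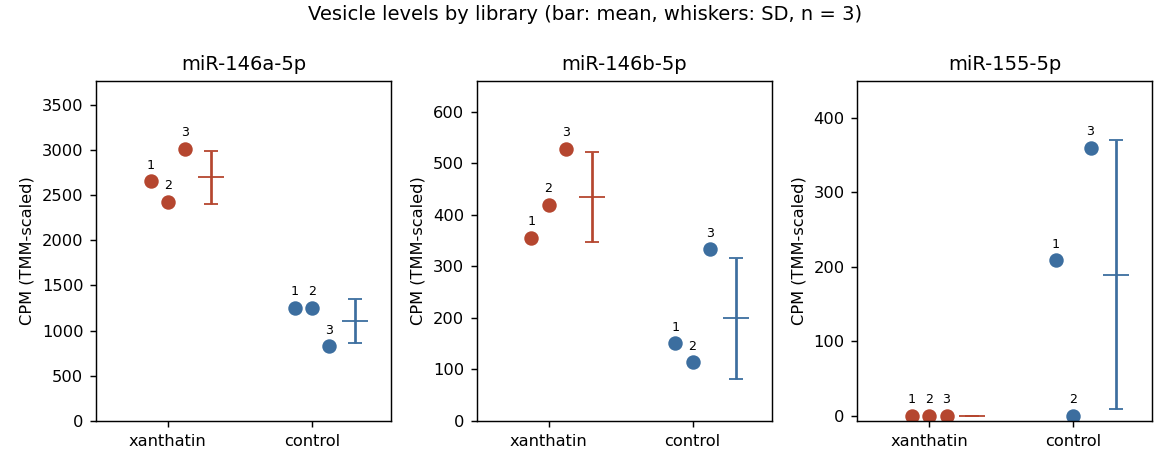
Level of miR-146a-5p, miR-146b-5p and miR-155-5p in each vesicle library, in CPM scaled by TMM. Points are libraries numbered by replicate, the bar is the group mean and the whiskers are the SD (n = 3 each). The miR-146a-5p points lie at 2424 to 3010 CPM in xanthatin libraries and 825 to 1251 CPM in control libraries, while miR-155-5p was read in control libraries 1 and 3 alone.

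The fitted change was 2.43-fold, a log2 fold change of 1.28 (SE 0.25, 95% interval 0.67 to 1.89, edgeR adjusted p = 0.0101). The call was kept when any 1 library was left out, with log2 fold changes of 1.17 to 1.48 (adjusted p = 0.0156 to 0.038). In the same test 30.3% of all tested rows were called and 13.4% were called higher, so a rise was far from rare in this comparison. By size, miR-146a-5p ranked 25 of the 34 rows called higher and 14 of the 21 known miRNAs among them. Rows with all xanthatin libraries above all control libraries made up 25.2% of those tested.

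The size of the change depended on what the counts were set against. Summed over libraries, miR-146a-5p had 1685 counts in the xanthatin group and 269 in the control group, a ratio of 6.26, beside a ratio of 3.32 for all miRNA counts. Its share of all miRNA counts was 0.239% ± 0.024 in xanthatin libraries and 0.124% ± 0.024 in control libraries (SD, n = 3 each). That is 1.92 times as much, with an exact two-sided permutation p = 0.1, the smallest that 3 against 3 libraries allow. The Wilson 95% intervals of single libraries, which cover counting error only, lay between 0.201% and 0.288% in the xanthatin group and between 0.0756% and 0.172% in the control group, so no interval of one group reached into the other.

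The authors' deposited TPM scale divides by a far larger total than the miRNA counts. That total was 26867789 to 31859012 in xanthatin libraries and 9408297 to 12130988 in control libraries, and what it holds is not stated. On that scale miR-146a-5p was at 19.4, 18.3 and 20.2 TPM in xanthatin libraries 1 to 3. It was at 8.90, 9.98 and 6.59 TPM in control libraries 1 to 3. The ratio of the means was 2.27 on that scale. With library totals as the only scaling the log2 fold change was 0.94 (edgeR adjusted p = 0.028), and the median of all tested rows was -0.49 with that scaling, against -0.16 with TMM. Relative to the median of the same fit, miR-146a-5p stood 1.44 higher on the log2 scale with either scaling. A change of scaling moves all rows nearly alike, so this distance could hardly differ between the scalings. Over all the alternative settings it ran from 0.97 (no count filter) to 1.58 (DESeq2).

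**Figure D2:**
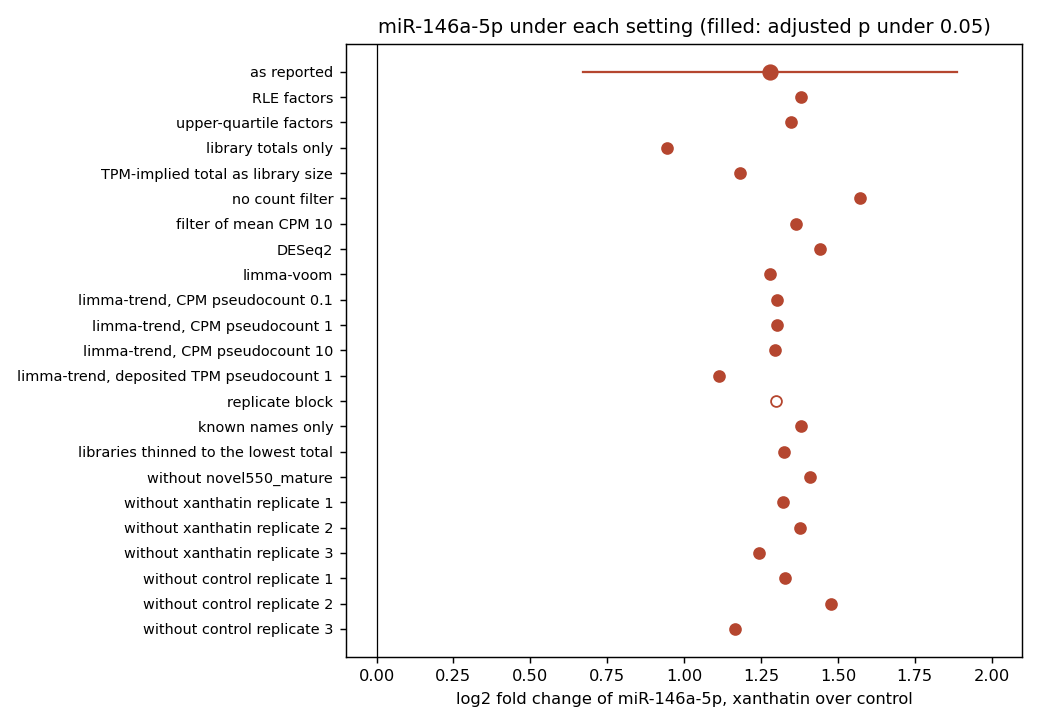
Log2 fold change of miR-146a-5p, xanthatin over control, as reported (top, with its 95% interval) and under each of 22 alternative settings. Filled points have an adjusted p under 0.05. All points lie between 0.94 and 1.57, and the open point is the fit with the replicate number as a block.

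A measure that needs no library size is the ratio to other miRNAs of the same library. Common reference miRNAs of small RNA work (miR-16-5p, miR-103a-3p, miR-191-5p, miR-423-3p and miR-423-5p) were used for this, on log2 counts with 0.5 added. Against the mean of all 5, miR-146a-5p stood at 0.98, -0.04 and 0.29 in xanthatin libraries 1, 2 and 3, and at -0.64, -0.27 and -0.61 in control libraries 1, 2 and 3. The groups did not overlap, but xanthatin library 2 came close to control library 2. The difference was 0.92 on the log2 scale (exact permutation p = 0.1, two-sided, the smallest possible). Over the 8 permutation comparisons of shares and ratios made here, the smallest Benjamini-Hochberg adjusted p was 0.2.

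The references did not give the same answer one by one. Against miR-423-3p, which gave the smallest SD in both groups, the log2 ratio was -2.41 ± 0.12 in xanthatin libraries and -4.01 ± 0.08 in control libraries (SD, n = 3 each), a difference of 1.59. With miR-423-5p the difference was 1.47. Against miR-191-5p it was 0.59 and the groups overlapped (exact permutation p = 0.2). miR-103a-3p and miR-16-5p gave 0.28 and 0.68, also with overlapping groups. Those denominators rested on few reads: miR-16-5p had 3, 29 and 31 counts in xanthatin libraries and 4, 4 and 2 counts in control libraries. None of the 4 references that were tested passed edgeR's test, with an adjusted p of 0.0994 for miR-191-5p, which passed with 6 of 22 alternatives, and 0.219 to 0.242 for the other three. miR-423-3p and miR-423-5p passed as lower with library totals alone (adjusted p = 0.0253 and 0.00463).

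**Figure D3:**
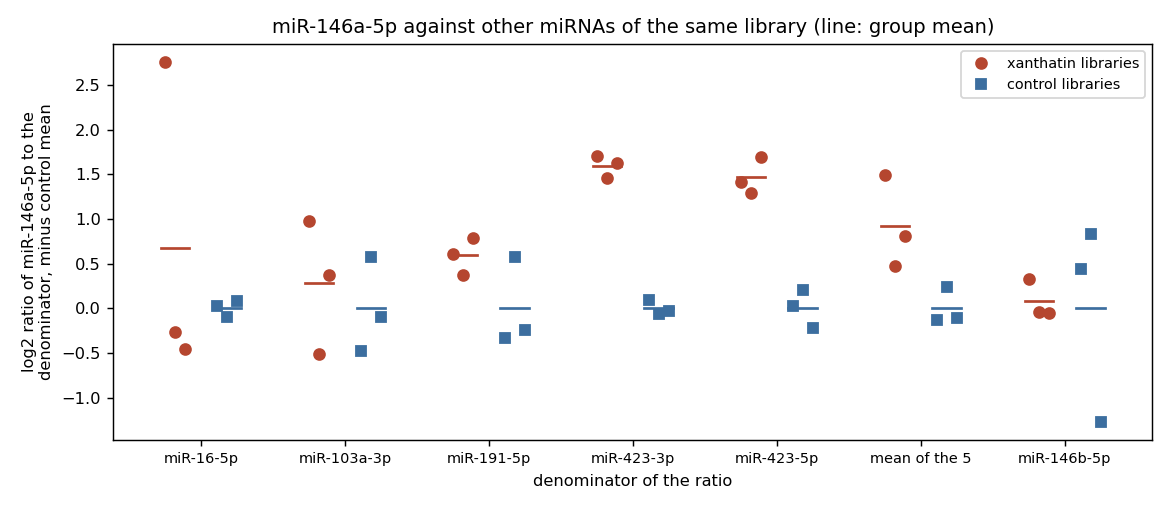
Log2 ratio of miR-146a-5p to each reference miRNA, to the mean of the 5 references and to miR-146b-5p within each library, minus the control mean of that ratio. Points are libraries and lines are group means. Xanthatin and control libraries are apart for miR-423-3p, miR-423-5p and the mean of the 5, and overlap for the other denominators.

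miR-146b-5p, which has the seed of miR-146a-5p, was read at a lower level in every library. It had 75, 101 and 95 counts in xanthatin libraries 1, 2 and 3, against 13, 9 and 25 counts in control libraries 1, 2 and 3. These were 434 ± 87.2 CPM in xanthatin libraries and 199 ± 117 CPM in control libraries (SD, n = 3 each). The groups did not overlap, although control library 3, at 333 CPM, came near xanthatin library 1, at 355 CPM. The log2 fold change was 1.12 (SE 0.54, 95% interval -0.19 to 2.44) and did not pass the test (edgeR adjusted p = 0.159). Without control library 3 it was 1.78, still short of the threshold (adjusted p = 0.0643). miR-146b-3p had 0 counts in the xanthatin libraries and 1 count in control libraries, too few for any comparison.

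Within the pair, miR-146a-5p held most of the counts. It made up 88.2%, 85.2% and 85.1% of the summed miR-146a-5p and miR-146b-5p counts in xanthatin libraries 1, 2 and 3, against 89.3%, 91.7% and 71.3% in control libraries 1, 2 and 3. Control library 3 stood apart with a Wilson 95% interval of 61.0% to 79.7%, on 87 counts. The log2 ratio of miR-146a-5p to miR-146b-5p was 2.64 ± 0.22 in xanthatin libraries and 2.56 ± 1.12 in control libraries (SD, n = 3 each). The difference of 0.08 had an exact two-sided permutation p = 1, was -0.56 without control library 3, and ranged from -0.88 to 1.60 over the 9 pairs of 1 xanthatin and 1 control library. A difference in response between these seed partners was not detected in these libraries, and a sizeable one in either direction lies inside that range.

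miR-155-5p did not follow miR-146a-5p. It had 0 counts in each xanthatin library, against 18, 0 and 27 counts in control libraries 1, 2 and 3. The control libraries thus disagreed among themselves, since control library 2, where 3 counts equal 37.9 CPM, matched the xanthatin libraries. Against a floor of 3 counts over the xanthatin group (4.75 CPM), the pooled control libraries (187 CPM) stood at least 39.4-fold higher. This bound allows for counting error of the xanthatin zeros only and not for the spread between control libraries. Control library 2 alone gives no such bound.

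That bound was 22.9-fold without control library 3, and 24.4-fold and 26.2-fold without xanthatin library 2 or 1. The row did not reach the count filter and so was not tested with the others. It entered 7 alternative fits and passed in 3 of them: with no count filter (adjusted p = 0.0485), with DESeq2 (adjusted p = 0.0226) and without control replicate 2 (adjusted p = 0.0294). In the other 4 the adjusted p was 0.122 to 0.131. All counts of the row lay in control libraries 1 and 3, so it met any count filter through the control group alone. The fit without control replicate 2 also left out the only control library at 0. These passes are therefore not read as support for a fall. The row for the other arm, miR-155-3p, was not among those deposited.

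miR-146a-5p belongs to a list of 14 miRNAs reported to be induced by NF-kB, of which miR-21, miR-221 and miR-222 are known as growth-promoting miRNAs of liver tumours. The list met 20 rows, and 6 had enough counts to be tested. Of these, miR-146a-5p and miR-21-5p rose, 0 fell and 4 did not pass the test, while of all tested rows 30.3% were called and 13.4% were called higher. The median log2 fold change of these 6 rows was 1.14 (1.12 without miR-146a-5p), beside -0.16 for all tested rows. So few tested rows do not set the list apart from the background. All 20 rows together took 1.30% ± 0.021 of miRNA counts in xanthatin libraries and 0.781% ± 0.198 in control libraries (SD, n = 3 each). The other 14 rows held few counts and did not move as one. Among them, miR-155-5p had a mean of 0 CPM in xanthatin libraries and 189 CPM in control libraries, and miR-132-3p had 39.3 and 8.87 CPM. Rows of miR-210 and miR-9 are also among the 14.

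miR-21-5p had 1367, 1593 and 1216 counts in xanthatin libraries, against 273, 163 and 190 counts in control libraries. It stood at 6616 ± 141 CPM in xanthatin libraries and 2582 ± 552 CPM in control libraries (SD, n = 3 each), a log2 fold change of 1.36 (SE 0.19, edgeR adjusted p = 0.00347). Its change was thus close in size to that of miR-146a-5p, and its groups did not overlap.

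miR-221-3p was at 2821 ± 217 CPM in xanthatin libraries and 1258 ± 910 CPM in control libraries (SD, n = 3 each), and did not pass (log2 fold change 1.16, edgeR adjusted p = 0.231). Its spread came from control library 2, which held 19 counts where control libraries 1 and 3 held 172 and 116. miR-222-3p, from the same cluster as miR-221-3p, had 120, 327 and 172 counts in xanthatin libraries and 39, 41 and 33 counts in control libraries (log2 fold change 1.03, adjusted p = 0.0994). miR-125b-5p was level at 912 ± 356 CPM in xanthatin libraries and 914 ± 354 CPM in control libraries (SD, n = 3 each), with a log2 fold change of -0.00 (95% interval -1.05 to 1.04).

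**Figure D4:**
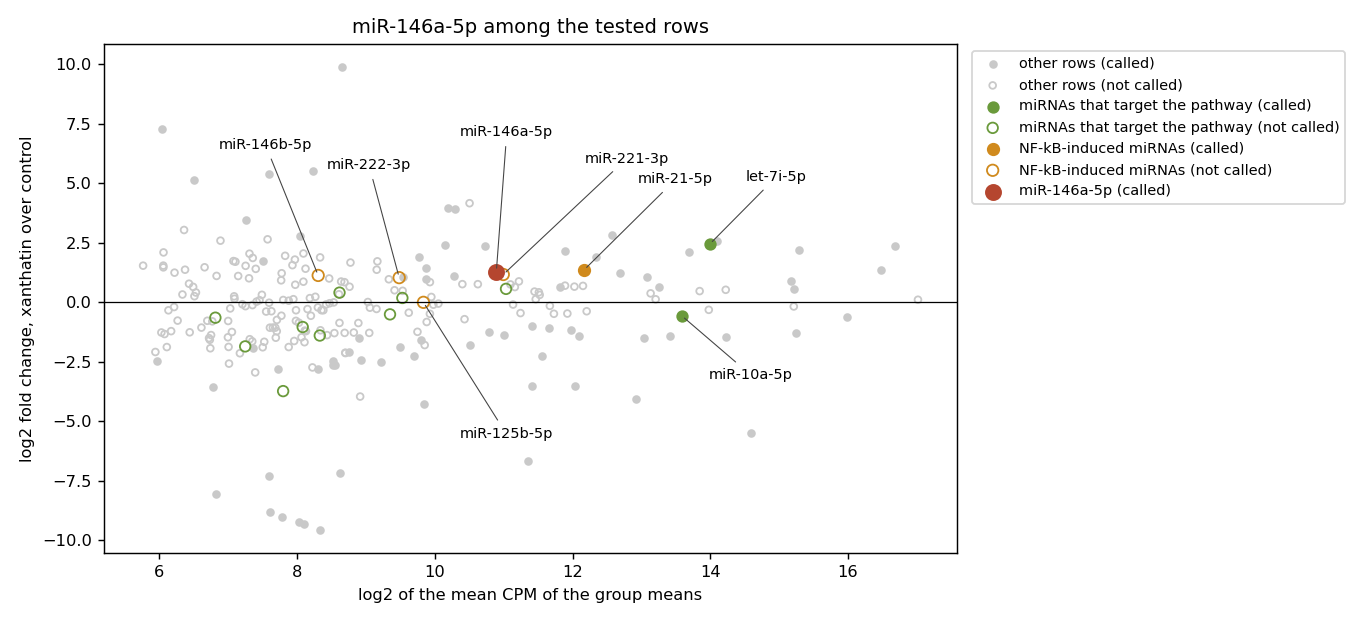
Log2 fold change, xanthatin over control, against the log2 of the mean CPM of the group means for the 254 tested rows. Filled points passed edgeR's test at an adjusted p under 0.05 and open points did not. miR-146a-5p lies at 1.28, beside miR-21-5p at 1.36 and miR-221-3p at 1.16, and let-7i-5p lies above them at 2.44.

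A second list held 22 miRNAs reported to act on NF-kB or Toll-like receptor signalling, miR-146a among them. Of 28 rows, 15 were tested: 3 rose, 1 fell and 11 did not pass, with a median log2 fold change of -0.00 (-0.26 without miR-146a-5p). Of all tested rows 30.3% were called and 13.4% were called higher, so the number called in this list was near the background. Besides miR-146a-5p and miR-21-5p the row that rose was let-7i-5p, known to repress the receptor TLR4. It stood at 27511 ± 2005 CPM in xanthatin libraries and 5068 ± 1213 CPM in control libraries (SD, n = 3 each; log2 fold change 2.44, SE 0.20, edgeR adjusted p = 4.91e-04). miR-10a-5p fell, at 9900 ± 537 CPM in xanthatin libraries and 14671 ± 1545 CPM in control libraries (SD, n = 3 each; log2 fold change -0.57, adjusted p = 0.0144), a call that was lost under 13 of 22 alternatives. miR-125a-5p, from the family of miR-125b, did not pass (log2 fold change 0.56, edgeR adjusted p = 0.0819). No change particular to this list is read from these counts.

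In the order of known miRNAs by mean CPM, miR-146a-5p stood at place 40 of 421 in xanthatin libraries and at place 62 of 368 in control libraries. These CPM values carry no length term, and how much of each molecule the reads spanned is not given in the sources used here. Its neighbours in xanthatin libraries were miR-128-3p (2789 ± 351 CPM) and let-7e-5p (2749 ± 523 CPM) above and miR-125a-5p (2499 ± 324 CPM) and miR-483-5p (2405 ± 530 CPM) below (SD, n = 3 each). Those of the control libraries were miR-941 and miR-6754-3p above, at 1173 ± 549 and 1140 ± 698 CPM, and miR-3184-5p and miR-4443 below, at 1082 ± 316 and 1045 ± 644 CPM (SD, n = 3 each). All 8 overlapped miR-146a-5p in range, so its place among them is not fixed by these libraries. Single libraries placed it at 37, 41 and 35 with xanthatin and at 62, 56 and 72 in control.

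The known miRNAs whose profile over the 6 libraries was most like that of miR-146a-5p were let-7b-5p, miR-192-5p, miR-183-5p, miR-21-5p and miR-224-5p. Likeness was the root mean square difference of log2(CPM + 1), each centred on its own mean over the 6 libraries, among 177 other tested known miRNAs. It was 0.11 for let-7b-5p, 0.24 for miR-192-5p, 0.25 for miR-183-5p, 0.28 for miR-21-5p and 0.33 for miR-224-5p. The profiles come from the same libraries, which fall into 2 groups that also differ in depth. The absolute levels differed widely: let-7b-5p, a member of a family that represses growth-promoting transcripts, stood at 132117 ± 14142 CPM in xanthatin libraries and 51004 ± 7438 CPM in control libraries (SD, n = 3 each). Like miR-146a-5p, let-7b-5p and miR-192-5p were lowest in control library 3, at 42474 and 2049 CPM.

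**Figure D5:**
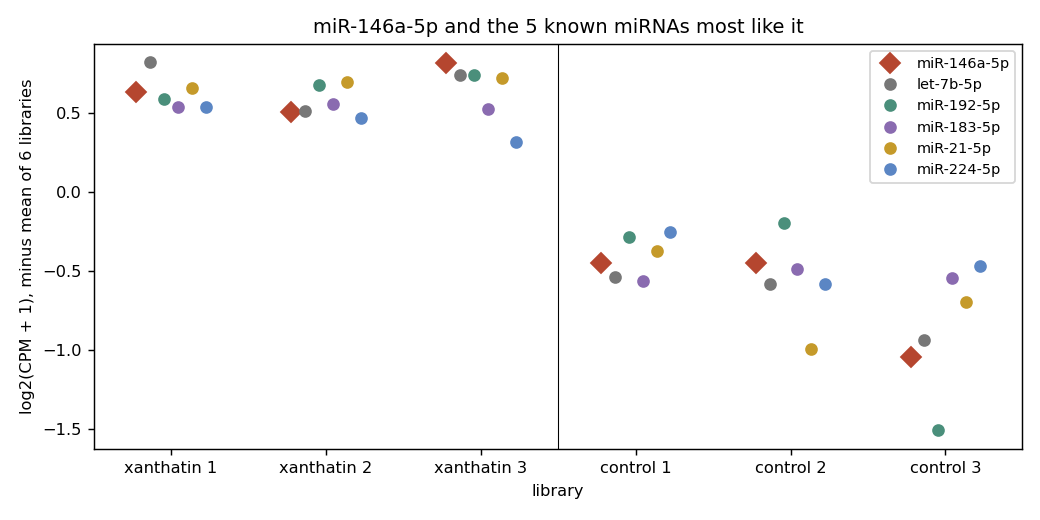
Profiles of miR-146a-5p and the 5 known miRNAs most like it over the 6 libraries, as log2(CPM + 1) minus the mean of the 6 libraries. Each point is 1 library. All 6 miRNAs lie above 0 in the xanthatin libraries and below 0 in the control libraries, and miR-146a-5p, let-7b-5p and miR-192-5p have their lowest point in control library 3.

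miR-146a is abundant in immune cells, and vesicle pellets can carry RNA from serum, so markers of other sources were read beside it. In bulk RNA a change in the makeup of the pellet and a change in RNA per vesicle cannot be told apart. Blood cell markers (7 names, 8 rows) took 0.059% to 0.0777% of miRNA counts in xanthatin libraries and 0.619% to 1.19% in control libraries, opposite in direction to miR-146a-5p. Most of these counts were of miR-486-5p, a red cell miRNA with 167, 139 and 115 counts in xanthatin libraries and 949, 432 and 497 counts in control libraries. The red cell marker miR-451a held too few counts to show whether it fell too. It had 1, 9 and 0 counts in xanthatin libraries 1, 2 and 3, against 1, 3 and 2 counts in control libraries 1, 2 and 3. Scaled for depth, these were 14.1 ± 20.4 CPM in xanthatin libraries and 25.4 ± 13.2 CPM in control libraries (SD, n = 3 each), with overlapping groups. The white cell markers miR-150-5p and miR-223-5p were at 0 in all xanthatin libraries and in control libraries 1 and 2. Their 11 and 2 counts were all in control library 3. Other white cell markers went the other way: miR-342-5p had 0, 0 and 34 counts and miR-342-3p 0, 9 and 9 counts in xanthatin libraries 1, 2 and 3, and both were at 0 in all control libraries. miR-142-5p had 1 count in xanthatin libraries and 0 in control libraries. Apart from miR-486-5p these rows held too few counts to be tested.

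Stromal and endothelial markers (7 names, 8 rows) took 0.0616% to 0.0885% in xanthatin libraries and 0.413% to 0.566% in control libraries. Most of these counts were of miR-10b-5p and miR-143-3p, both lower with xanthatin (log2 fold changes -1.81 and -4.26, edgeR adjusted p = 0.00306 and 0.00272). miR-126-3p did not pass (-1.86, adjusted p = 0.075), and the 39 counts of miR-214-3p were all in control library 1. As pellets can carry RNA from serum, hepatocyte markers cannot by themselves check the labelled cell type. These markers were present in both groups except miR-885-5p, whose 15 counts were all in control library 1. The list took 2.74% to 3.33% in xanthatin libraries and 11.0% to 13.8% in control libraries, and miR-122-5p, the miRNA most typical of hepatocytes, had 225, 236 and 218 counts in xanthatin libraries and 4316, 4535 and 2848 in control libraries. The list did not move as one: of 5 tested rows, miR-122-5p and miR-148a-3p fell (log2 fold changes -5.48 and -1.29, edgeR adjusted p = 1.98e-05 and 0.00272) and miR-192-5p rose (1.22, adjusted p = 0.0399). That last call was lost without xanthatin library 1, 2 or 3 and without control library 1 (adjusted p = 0.0823 to 0.0943), and under 3 other alternatives. miR-194-5p, at 1.67, and miR-194-3p, at -1.80, did not pass (adjusted p = 0.338 and 0.0585). miR-192-5p is also among the profiles most like miR-146a-5p above. The summed shares of all these lists differed between the groups, and their part in the change of miR-146a-5p was not tested.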

How the data were processed

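The authors deposited a raw count and a TPM value for each miRNA name and library, per the file headers. Within each library the deposited TPM is proportional to the count, so feature length does not enter. Per the submitters' processing notes the build was hg38. The aligner, miRNA database and counter were not given in the sources used here. Of the 1007 rows, 497 were known names and 510 predicted names, and 45 rows within these classes joined several names.

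Groups were compared in edgeR 4.0.16 under R 4.3.3 (quasi-likelihood F test on group, TMM factors, filterByExpr with minimum count 10, Benjamini-Hochberg adjustment over the 254 rows tested, threshold 0.05). Standard errors were derived from the F statistic, as the size of the log2 fold change divided by the root of F. Single measures were compared with exact permutation tests (scipy 1.17.1). limma 3.58.1 and DESeq2 1.42.0 served as alternatives. The fit was tested on simulated data. Replicate libraries were all distinct, differing by more than sampling noise (chi-square over its degrees of freedom 16.1 to 21.3).

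miR-146a-5p, the lists and the alternatives were chosen with earlier results of these data known. The text names the members, rows sharing the seed, the 5 most similar profiles, the 2 neighbours above and below in level, list members that passed or were among the 4 most abundant tested, and the references. miR-222-3p, the marker rows and rows of few counts were named after their values were seen. Sequences and promoters come from RefSeq tables, where all 4 deposited miR-146 and miR-155 names matched.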

Additional observations from a re-analysis of the deposited data

How the results depend on the processing

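The log2 fold change of miR-146a-5p kept its direction in all 22 alternatives (0.94 to 1.57) and passed in 21 of them. With the replicate number as a block it was 1.30 (adjusted p = 0.0512), and 54 rows were called in place of 77. Deviations of same-numbered libraries correlated at 0.09, -0.08 and -0.14, and those of differently numbered libraries at -0.18 to 0.25. The labels state no pairing, and with 3 libraries per group these values cannot decide whether the numbers pair the libraries. miR-146b-5p passed in 0 of 22 alternatives (0.75 to 1.78, adjusted p = 0.0643 to 0.371). The number of rows called was 49 with known names only and 54 to 99 otherwise, and 22 were called higher without xanthatin replicate 1 or 3. The NF-kB-induced list had 1 row called higher under the block, and 1 called lower (miR-155-5p) with no filter, with DESeq2 and without control replicate 2. That replicate was the only control library with 0 counts of miR-155-5p, so this last call is not read as support. The pathway-targeting list had 0 to 4 called lower. The difference of log2 ratios to the references was 0.28 with miR-103a-3p, 1.59 with miR-423-3p and 1.47 with miR-423-5p as the only denominator. The log2 ratio of shares was 0.96, and 1.20 against the TPM-implied total. The log2 ratio of miR-146a-5p to miR-146b-5p differed by -0.56 to 0.49 with 1 library left out. miR-125b-5p, near 0, turned positive under thinning to the lowest total (0.068), known names only (0.087), the CPM 10 filter (0.088), RLE (0.12) and upper-quartile (0.13) factors, removal of novel550_mature (0.16, a predicted sequence abundant in xanthatin libraries), DESeq2 (0.17) and no filter (0.30). With 1 library left out it was -0.32 to 0.31. miR-423-5p turned positive with no filter (0.11). The cause of these shifts was not tested. Depth limits the control values most: 62 counts of miR-146a-5p and 9 of miR-146b-5p were the lowest there.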
